A study of Sus scrofa with 22 samples.

Results

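Interleukins and chemokines are the secreted proteins by which immune, epithelial and stromal cells of the gut call, feed and restrain each other, and the members described here are the genes for these proteins and for their receptors. A gene was taken as a member when an array probe's accession belonged to a pig gene whose symbol begins with IL, CCL, CXCL, CCR or CXCR followed by a digit. IL1B, CXCL2, CCL5, CCL21, CCR3 and CCR10 were set aside. RefSeq lists 116 such pig genes without those 6, and 61 of them were found among the 3029 symbols that the array's accessions reach. The 61 comprise 13 CC chemokines, 7 CXC chemokines, 7 chemokine receptors, 20 interleukins and 14 interleukin or interleukin-like receptors. The rule uses no measured value.

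The samples are small intestine of 22 crossbred Large White × Danish Landrace piglets, specific pathogen free, described as 3 days old and having suckled the sow before they came to the facility. They come from separate experiments. In the first, 6 piglets were given doxorubicin (DOX), a drug that stalls topoisomerase II on DNA, as 1 dose, and a further 6 were untreated. In the second experiment, 5 piglets were given busulfan with cyclophosphamide (BUCY), drugs that alkylate DNA, and 5 were untreated. Drugs entered through a jugular vein catheter, placed together with a stomach tube under anaesthesia, and the piglets were kept in single cages. Doses, sampling times, litter, the stretch of intestine and the treatment given to the untreated piglets in place of drug are not stated in the labels or files read here, which also leave unsaid whether the age is that at treatment or at sampling.

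Chemokines are small proteins that form gradients, and leukocytes follow them through G protein-coupled receptors, named CCR or CXCR after the chemokines they bind. In the small intestine CCL25 with its receptor CCR9 and CCL28 draw lymphocytes to the mucosa, and CXCL9, CXCL10 and CXCL11 are made in response to interferons. Interleukins act on receptors built from shared chains, such as IL2RG for IL2, IL4, IL7, IL9, IL15 and IL21, or IL6ST for IL6 and its relatives, most of which signal through JAK kinases and STAT transcription factors.

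Values are given as log2 ratios of the RNA of 1 piglet (Cy5) over a pool of all samples (Cy3) hybridised to the same two-colour array, so 0 is the level of the pool and levels of different genes are not compared. The share of probes well above background ran from 59.7% to 72.5% over the arrays, whose number sets the limit of precision. The 22 arrays lie on 7 slides read on 3 scan days. BUCY treated replicates 2 and 3 stood apart from all other arrays on principal component 2 (25.7% of the variance), at 55.5 and 67.8 where the other 20 arrays lay between -44.6 and 28.4. Results of the BUCY comparison are therefore also given without both. All 6 enterocyte markers with a probe, FABP1, FABP2, APOA4, ANPEP, DPP4 and SLC5A1, were well above background on all 22 arrays. Nothing in the labels names a litter or a separate source for the piglets, so whether they are independent cannot be checked. The p-values rest on the spread between arrays, each of 1 piglet, which holds piglet, slide and scan day differences together.

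A member was tested when its probe stood well above background in the Cy5 channel on at least 5 arrays, and 50 of the 61 met this. Of these, 37 were above background on all 22 arrays. The 11 that were not tested are mostly cytokines of T cells. IL2, IL9, IL13, IL21, IL12A and IL23A were not well above background on any array, IL17A and the IL12 receptor chain IL12RB2 were on 1 array each, IL2RA and IL1RAPL1 on 2 each, and IL4 on 3. IL1RAPL1, a protein of nerve cell synapses, and IL29, an interferon of the lambda kind, carry the prefix without being interleukins by function, and IL16 belongs to none of the interleukin families.

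A single limma model over all 22 arrays tested 24761 genes, of which most have no symbol here, and a gene was called when its Benjamini-Hochberg adjusted p was under 0.05. The model takes 1 spread per gene, shared by the 4 groups. SEs, intervals and p-values of a comparison thus also rest on arrays outside it. The counts of called members differed widely between the comparisons. After DOX 1 of 50 tested members was called, 2.0% beside 0.848% of all genes tested, and after BUCY 14 were called, 28.0% beside 17.3% of all genes. Between the untreated groups 22 members were called, 44.0% beside 25.2% of all genes, and 21 of these were lower in the BUCY experiment. The comparisons share animals: each drug comparison uses the untreated group that also enters the comparison of untreated groups, so their values for a gene are given side by side and are not independent.

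**Figure D1:**
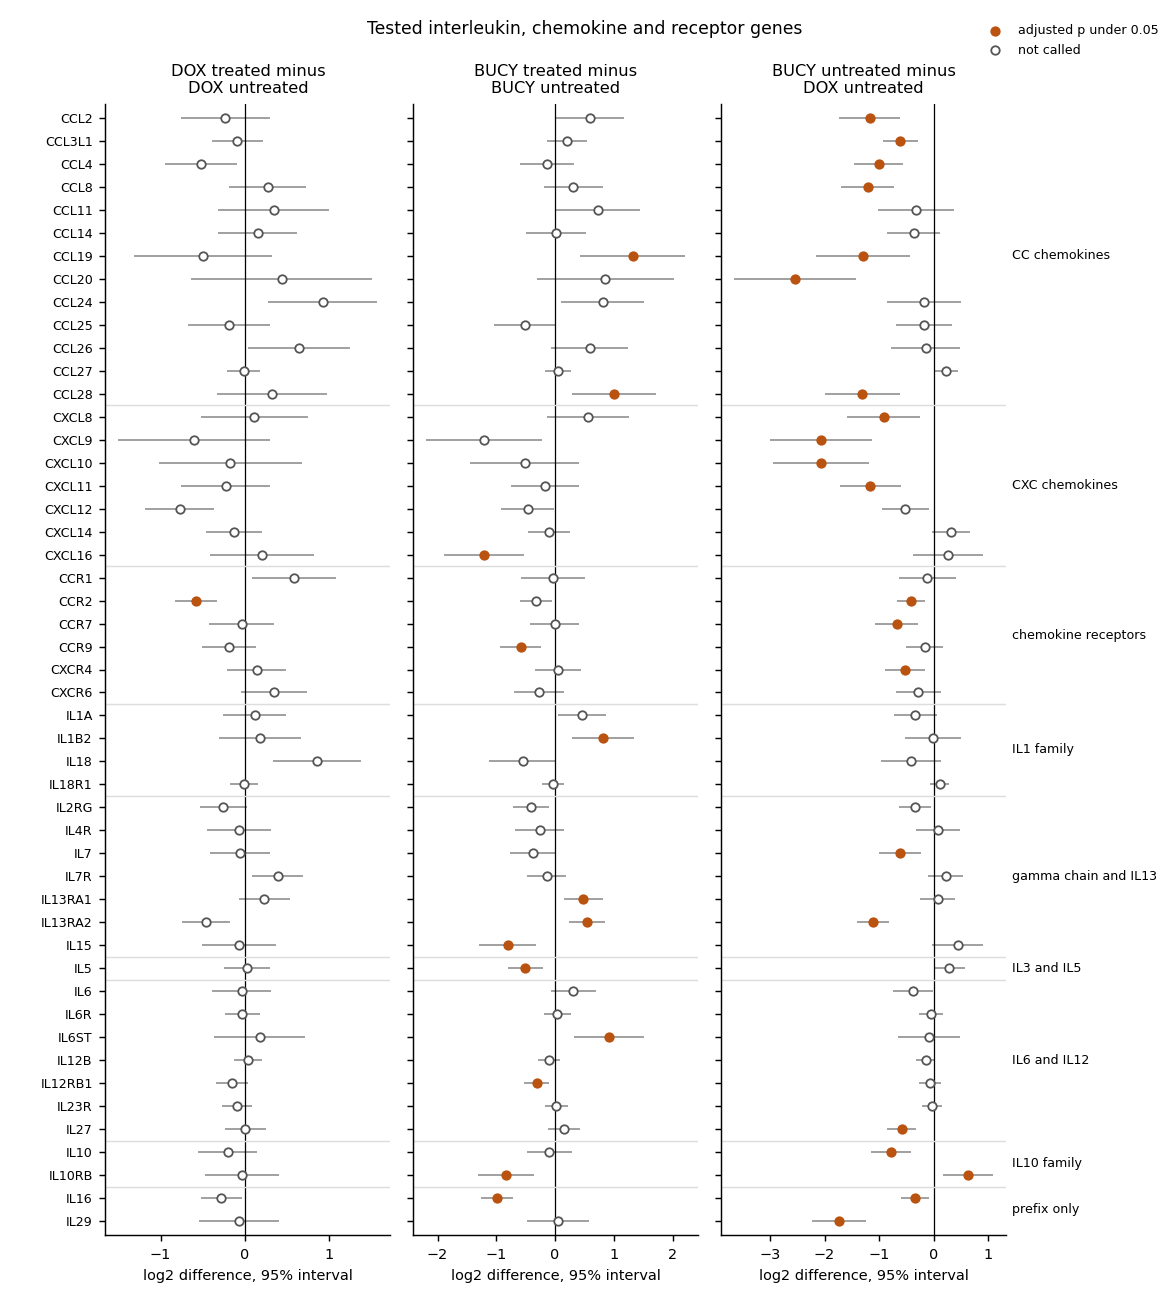
Log2 difference (x axes, which differ in range between panels) of 49 of the 50 tested members with 95% intervals from the limma fit, in rows ordered by family, for DOX treated minus untreated (n = 6 and 6), BUCY treated minus untreated (n = 5 and 5) and BUCY untreated minus DOX untreated (n = 5 and 6). Filled points have an adjusted p under 0.05: 1 in the first panel, 13 in the second and 21 in the third, where 39 of the 49 members shown lie below 0.

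The DOX comparison asks which of these genes differ in the intestine after doxorubicin. CCR2, the receptor by which monocytes follow CCL2, was the only called member. Its log2 ratio ran from -0.46 to -0.084 with a median of -0.30 in the 6 DOX treated piglets and from -0.038 to 0.72 with a median of 0.18 in the 6 untreated ones. All treated piglets were below all untreated piglets. CCR2 fell 1.49-fold (log2 change -0.58, SE 0.120, adjusted p = 0.0196 by limma). On the 3 slides that hold both groups its difference was -0.80 to -0.49, but the call was lost without DOX treated replicate 1 (0.0563) or DOX untreated replicate 1 (0.0606). Here and below, a value in brackets after an array or setting is the adjusted p without that array or under that setting. The count of called members after DOX was 0 without either of those arrays, 3 without DOX treated replicate 4 and 2 without DOX treated replicate 5.

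The other 49 tested members did not pass after DOX, and 21 of the 50 were above and 29 below 0, with a median log2 difference of -0.036 beside 0.0077 over all genes. At an unadjusted p under 0.05 there were 11 members, beside 3417 of the 24761 genes. Next to CCR2 in p was CXCL12, a stromal chemokine that holds lymphocytes and stem cells through CXCR4 (log2 change -0.77, SE 0.198, adjusted p = 0.0671). CXCL12 ran from -1.06 to 0.32 with a median of -0.67 in treated and from 0.11 to 0.44 with a median of 0.29 in untreated piglets, and 5 of 6 treated piglets were below the untreated mean. It passed with the slide as a fixed block (0.0353), without DOX treated replicate 4 (0.0412) and without DOX treated replicate 5 (0.00962).

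IL18 and IL13RA2 separated the DOX groups without passing the test across all genes. IL18, an inflammatory cytokine stored in epithelium and macrophages and released by inflammasomes, ran from 0.060 to 0.96 with a median of 0.41 in treated and from -0.86 to -0.015 with a median of -0.44 in untreated piglets (log2 change 0.86, SE 0.251, adjusted p = 0.105). IL13RA2, a receptor that binds IL13 with little signalling of its own, ran from -0.50 to 0.14 with a median of 0.027 and from 0.18 to 0.85 with a median of 0.26 (log2 change -0.46, SE 0.136, adjusted p = 0.105). Treated and untreated piglets did not overlap for either gene, with the treated IL18 values above and the treated IL13RA2 values below the untreated ones. Second probes gave 0.70 for IL18 and -0.13 for IL13RA2, the latter above background on 15 arrays.

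Among the remaining chemokines, the eotaxins that attract eosinophils stood at 0.92 for CCL24, 0.64 for CCL26 and 0.34 for CCL11 after DOX, with adjusted p of 0.165, 0.322 and 0.657. CCL4, an attractant of T cells and macrophages, was at -0.52 (0.244), and CCR1, a receptor of monocytes and neutrophils, at 0.58 (0.275). IL7R, the receptor chain for the lymphocyte survival factor IL7, was at 0.39 (0.220), with all 6 treated piglets above the untreated mean, and IL16 was at -0.28 (0.275), with all 6 below it. Second probes gave 0.74 for CCL24, 0.41 for CCR1, 0.082 for IL7R and -0.0087 for CCL11. None of the members named here passed, and the 95% intervals of their tested probes excluded 0 except for CCL11.

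Markers of T and NK cells lay lower too. All 13 tested markers, of 17 listed, were below 0 after DOX, with a median of -0.71. CD8A (-1.0), LCK (-0.94) and CD3E (-0.71) were called, 23.1% of the 13 beside 0.848% of all genes. The mean of the 13 ran from -0.69 to 0.36 in DOX treated and from 0.21 to 0.52 in DOX untreated piglets. Of 4 macrophage markers, CD163 (1.31) and CD14 (1.26) rose, while AIF1 (-0.44) and MRC1 (0.11) were not called. The B cell marker CD79A fell (-0.74), as did MCT7 (-1.05) and MS4A2 (-0.50) of the 3 mast cell markers. Of 4 neutrophil and 6 enterocyte markers 0 were called by limma, with 1 and 0 at an unadjusted p under 0.05. CCR2 and IL16 are genes of leukocytes, and in whole tissue fewer cells of a type and less RNA per cell cannot be told apart. The part of these markers in the differences was not tested.

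The BUCY comparison asks the same of busulfan with cyclophosphamide. IL16, a T cell product that attracts cells carrying CD4, fell 1.99-fold. CXCL16, a chemokine that epithelium and macrophages carry on their surface for CXCR6, fell 2.31-fold. The gut-homing receptor CCR9, IL15, IL5 and the receptor chains IL10RB and IL12RB1 were also among those that fell. Genes that rose were the chemokines CCL19 and CCL28, the cytokine IL1B2, and the receptor chains IL6ST, IL13RA1 and IL13RA2. In all, 6 of 50 members rose beside 8.23% of all genes tested, and 8 fell beside 9.05%. The median over the 50 was -0.036, beside -0.0012 over all genes, and at an unadjusted p under 0.05 there were 22 members, beside 7994 genes.

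The count of 14 depended on single arrays. It was 5 without BUCY treated replicate 2, 8 without BUCY treated replicate 3 and 8 without BUCY untreated replicate 2. Without BUCY treated replicates 2 and 3 together it was 3, IL16 and CCR9 among them. With the slide as a fixed block, which also takes out BUCY treated replicate 2 since it is alone on its slide, it was 5. In a fit of only the BUCY groups, IL16 and IL13RA2 were among the calls kept. Those of CXCL16, IL10RB, IL5, IL15, CCR9, IL1B2, IL6ST, IL12RB1, CCL19, IL13RA1 and CCL28 were lost. The split of 6 higher and 8 lower moved with the scaling: it was 1 and 9 with median centring in place of loess, which shifted the median of all genes to -0.12, 2 and 6 with arrays scaled to a common spread, and 3 and 7 with Cy5 alone. No called member changed sign under any of these.

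By class, 3 of 20 chemokines, 2 of 7 chemokine receptors, 4 of 12 interleukins and 5 of 11 interleukin receptors were called after BUCY, beside 17.3% of all genes, and the share of the chemokines was near this one. The CC and CXC chemokines mostly lay on opposite sides of 0: 11 of 13 CC chemokines were above 0, with a median of 0.59, and 6 of 7 CXC chemokines below it, with a median of -0.47. Most of these did not pass, so the medians are a description. Of the 7 chemokine receptors 6 were below 0.

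Among the chemokines, CXCL16 was at 0.090, 0.44, 0.41, 0.11 and 0.40 in BUCY untreated replicates 1 to 5 and at 0.12, -1.01, -2.61, -0.45 and -0.64 in BUCY treated replicates 1 to 5. The groups overlapped in treated replicate 1, and replicate 3 was the lowest. All 5 treated piglets were below the untreated mean (log2 change -1.21, SE 0.325, adjusted p = 0.0150), and a second probe gave -1.27. In the DOX experiment it ran from -0.15 to 0.59 with a median of 0.24 in treated and from -0.37 to 0.53 with a median of 0.0035 in untreated piglets. Without BUCY treated replicates 2 and 3 the change was -0.61, with adjusted p = 0.119. The call was also lost with only the BUCY groups in the fit and without the 6 arrays whose titles carry a suffix. Over these 3 settings adjusted p ran from 0.111 to 0.148. The SD was 1.03 in BUCY treated piglets and 0.17 to 0.35 in the other groups.

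CCL19, which brings CCR7-bearing dendritic and T cells together in lymphoid tissue, was at -0.71, -0.77, -1.83, -1.63 and -0.53 in untreated and at -0.29, -0.13, 1.73, -0.77 and 0.60 in treated piglets (log2 change 1.32, SE 0.432, adjusted p = 0.0393). CCL28, made by mucosal epithelium and an attractant of plasma cell precursors, was at 0.0047, -0.94, -1.29, -1.89 and -0.85 in untreated and at 0.52, -0.086, 1.02, -1.49 and 0.087 in treated piglets (log2 change 1.0, SE 0.343, adjusted p = 0.0474). The groups overlapped for both genes. The call of CCL19 was lost without BUCY treated replicate 2 (0.0605), BUCY treated replicate 3 (0.135), BUCY treated replicate 5 (0.0650), BUCY untreated replicate 2 (0.0545), BUCY untreated replicate 3 (0.0985) or BUCY untreated replicate 4 (0.0731), and that of CCL28 without any of 8 of the 10 BUCY arrays, BUCY treated replicate 4 and BUCY untreated replicate 1 being the exceptions, with adjusted p from 0.0644 to 0.156. Without BUCY treated replicates 2 and 3, adjusted p was 0.273 for CCL19 and 0.351 for CCL28.

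Chemokines that were not called after BUCY include CXCL9 (-1.21, adjusted p = 0.0804), which passed in the authors' deposited table (0.0460) and with the slide as a random block (0.0491), and without BUCY treated replicate 3 (0.0449). The CXCL9 probe was well above background on 3 of 5 BUCY treated and all 5 BUCY untreated arrays. For CXCL10 the tested probe gave -0.52 and a second probe -1.58, so the size of its difference depends on the probe. CXCL11 was not well above background on any BUCY treated array and was on 3 of 5 untreated ones, with a measured difference of -0.17 that did not pass (adjusted p = 0.712). CCL11 stood at 0.73 by its tested probe and at -0.14 by its second one, and was not called. CCL24 (0.81), CCL26 (0.59), CCL2 (0.59), CCL20 (0.86) and the neutrophil attractant CXCL8 (0.56) were above 0 without passing. CCL8 (0.31), CCL3L1 (0.20), CCL27 (0.049), CCL14 (0.011), CXCL14 (-0.11) and CCL4 (-0.14) lay nearer to 0. CCL2 passed without BUCY treated replicate 4 (0.0454) or 5 (0.0414), and CXCL8 without replicate 4 (0.0246).

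Among the chemokine receptors, CCR9, the receptor that brings lymphocytes to the small intestine, was at 0.13, -0.25, -0.41, -0.19 and -0.029 in untreated and at -1.04, -1.04, 0.011, -0.68 and -0.93 in treated piglets (log2 change -0.59, SE 0.170, adjusted p = 0.0219). Treated replicate 3 lay within the untreated range and the other 4 below it. The call was lost without BUCY treated replicate 2 (0.0750) or BUCY untreated replicate 1 (0.0595). It was also lost with the slide as a fixed block (0.106) and with only the BUCY groups in the fit (0.115). It was kept without treated replicates 2 and 3 (0.00655). CCR2 was at -0.33 without passing (0.0886), though it passed without BUCY treated replicate 3 (0.0485). CXCR6 (-0.27), CCR1 (-0.033), CCR7 (-0.0072) and CXCR4 (0.051) were not called.

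Among the interleukins, IL16 gave the smallest p of all members after BUCY. It was at -0.11, -0.16, -0.54, 0.057 and -0.43 in BUCY untreated and at -1.37, -1.39, -1.0, -1.12 and -1.26 in BUCY treated piglets, and in the DOX experiment ran from -0.33 to 0.090 with a median of -0.24 in treated and from -0.26 to 0.40 with a median of 0.17 in untreated piglets. The 5 BUCY treated piglets lay below each of the other 17. IL16 fell with log2 change -0.99, SE 0.128, adjusted p = 6.36e-05, differed by -1.11 to -0.83 within slides, and alone of the 14 kept its call under every alternative run and every array left out, with adjusted p up to 0.00685. Only slides 3, 5 and 7 hold both BUCY groups.

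IL15, which keeps T and NK cells of the epithelium alive, was at 0.61, 0.62, 0.43, -0.18 and 0.40 in BUCY untreated and at 0.49, -1.02, -0.89, -0.13 and -0.61 in BUCY treated piglets (log2 change -0.81, SE 0.232, adjusted p = 0.0204). Treated replicates 1 and 4 lay within the untreated range, whose lowest value was that of replicate 4, and the other 3 treated piglets lay below it. A second probe gave -0.72. The call was lost without BUCY treated replicate 2 (0.0765), BUCY treated replicate 3 (0.0680) or BUCY untreated replicate 2 (0.0543), and without treated replicates 2 and 3 together (0.314). With the slide as a fixed block the adjusted p was 0.110.

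IL5, the growth factor of eosinophils, was at 0.069, 0.35, 0.051, 0.18 and 0.051 in untreated and at -0.64, -0.34, -0.60, -0.46 and 0.21 in treated piglets (log2 change -0.51, SE 0.145, adjusted p = 0.0202). Treated replicate 5 lay within the untreated range and the other 4 below it, and a second probe gave -0.15. Its call was lost without BUCY treated replicate 3 (0.0638) or BUCY untreated replicate 2 (0.0582) and with the slide as a fixed block (0.0938), and without treated replicates 2 and 3 together (0.163). It also failed with Cy5 alone (0.286), with scaled arrays (0.0551), with the mean of its probes (0.0519), with only the BUCY groups in the fit (0.0924) and without the 6 arrays with a title suffix (0.0526). IL1B2, a close relative of IL1B whose signal this probe may share, was at -0.47, -0.043, -0.21, -0.11 and -0.22 in untreated and at -0.058, 1.06, 1.92, 0.18 and -0.056 in treated piglets (log2 change 0.82, SE 0.255, adjusted p = 0.0309). Treated replicates 2 and 3 were the highest, replicate 4 lay just above the untreated range and replicates 1 and 5 within it. The SD was 0.87 in BUCY treated, 0.16 in BUCY untreated, 0.11 in DOX treated and 0.19 in DOX untreated piglets. The SE of the change rests on the spread shared by these groups. Both further probes for IL1B2 were dim on at least 21 arrays. Its call was lost without BUCY treated replicate 2 (0.0994), BUCY treated replicate 3 (0.0688), BUCY untreated replicate 1 (0.0714), BUCY untreated replicate 3 (0.0548) or BUCY untreated replicate 5 (0.0517), and at adjusted p = 0.321 without treated replicates 2 and 3 together.

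Interleukins not called after BUCY were IL1A (0.46), IL6 (0.31), IL27 (0.16), IL29 (0.049), IL10 (-0.10), IL12B (-0.10), IL7 (-0.38) and IL18 (-0.55). Of these, IL18 and IL7 passed without BUCY treated replicate 1 (0.0190 and 0.0280), and IL1A without treated replicate 4 (0.0453) or 5 (0.0421). IL12B was above background on 0 arrays of either BUCY group and 7 arrays in all.

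The interleukin receptor chains changed in both directions after BUCY. IL10RB, the chain shared by the receptors of IL10, IL22 and the lambda interferons, was at 0.27, 0.17, 0.55, 1.12 and 0.98 in untreated and at 0.42, -0.73, -0.76, -0.022 and -0.0052 in treated piglets, and fell with log2 change -0.84, SE 0.229, adjusted p = 0.0163. Treated replicate 1 lay among the untreated values, replicates 2 and 3 were lowest, and the call was lost without BUCY treated replicate 2 (0.0602) or BUCY treated replicate 3 (0.0570). Without both, adjusted p was 0.267. IL12RB1, a chain of the IL12 and IL23 receptors, fell by less (log2 change -0.32, SE 0.0996, adjusted p = 0.0334), with no overlap between the groups, which ran from -0.14 to 0.28 in untreated and from -0.41 to -0.18 in treated piglets. Its call was lost without BUCY treated replicate 1 (0.0511), BUCY treated replicate 2 (0.0836), BUCY untreated replicate 4 (0.0783) or BUCY untreated replicate 5 (0.0668), and without treated replicates 2 and 3 together (0.114). It held under 8 of 15 alternatives other than single arrays left out.

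IL6ST, the chain through which IL6 and its relatives signal, was at -0.79, -0.76, -0.13, 0.024 and 0.16 in untreated and at -0.29, 1.10, 1.67, 0.49 and 0.090 in treated piglets (log2 change 0.91, SE 0.286, adjusted p = 0.0323), and a second probe gave 0.48. Replicates 2 and 3 were the highest, and the groups overlapped. The call was lost without BUCY treated replicate 2 (0.102), BUCY treated replicate 3 (0.111), BUCY untreated replicate 1 (0.0847) or BUCY untreated replicate 2 (0.0890), with the slide as a fixed block (0.288) or the scan day (0.0519), and without treated replicates 2 and 3 together (0.452). The difference within slides ran from -0.16 to 1.05.

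Both IL13 receptor chains rose after BUCY. IL13RA2 was at -0.82, -0.63, -0.60, -1.14 and -0.56 in BUCY untreated and at -0.38, -0.28, -0.050, -0.32 and 0.00070 in BUCY treated piglets, without overlap (log2 change 0.54, SE 0.149, adjusted p = 0.0163). It differed by 0.22 to 0.96 within slides, a second probe that was above background on 15 arrays gave 0.23, and no single array left out ended the call. Without treated replicates 2 and 3 together adjusted p was 0.107, and with the slide as a fixed block 0.0738. The call of IL13RA2 was also lost with median centring, with array weights and without the 6 arrays with a title suffix. It held under 11 of 16 alternatives other than single arrays left out, with adjusted p up to 0.304 where lost. IL13RA1, the signalling chain shared by IL4 and IL13, ran from -0.22 to 0.20 in untreated and from -0.084 to 0.87 in treated piglets (log2 change 0.48, SE 0.160, adjusted p = 0.0417). Its call was lost without any of 7 of the 10 BUCY arrays, kept only without BUCY treated replicate 1 or 5 or BUCY untreated replicate 4, with adjusted p from 0.0551 to 0.145 where lost, and with the slide as a random block (0.0546). Without treated replicates 2 and 3 together its change was 0.18 (adjusted p = 0.574), and it held under 6 of 16 alternatives other than single arrays left out. IL2RG (-0.40), IL4R (-0.26), IL7R (-0.15), IL6R (0.039), IL18R1 (-0.038) and IL23R (0.020) were not called, although IL2RG did not overlap between the groups (-0.090 to 0.18 untreated, -0.44 to -0.24 treated, adjusted p = 0.0610). The IL2RG probe was well above background on 3 of 5 BUCY treated and all 5 BUCY untreated arrays.

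**Figure D2:**
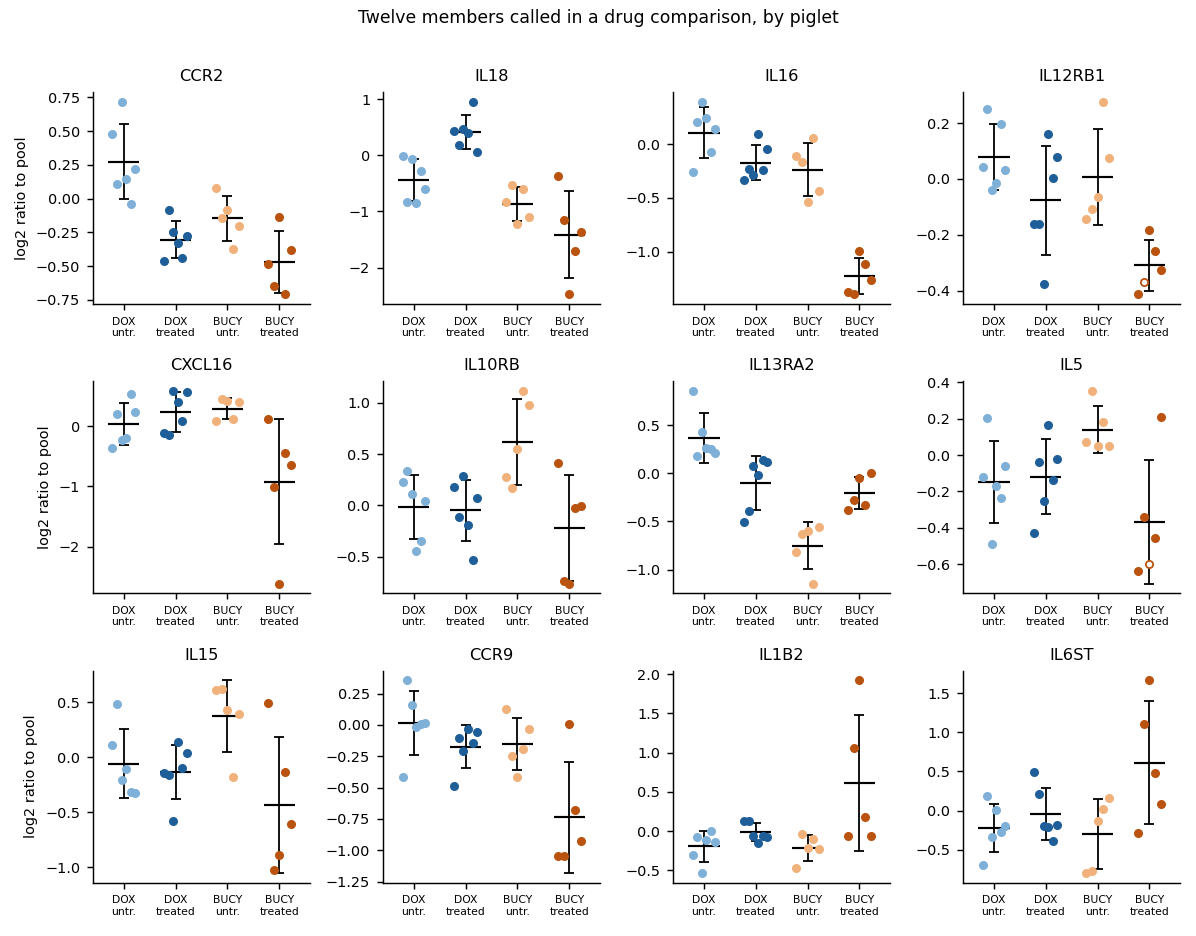
Log2 ratio to the pool (y axes, which differ in range) of 12 members in each piglet of the 4 groups, with the group mean and SD as bars and open points where the probe was not well above background. The 5 BUCY treated piglets lie below all others for IL16, and the DOX treated piglets lie below the untreated ones for CCR2.

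Cell markers differed between the BUCY groups as well. All 13 T and NK cell markers were below 0, with a median of -1.18. Of these, 11 were called, 84.6% beside 17.3% of all genes, among them CD3E (-1.37), CD96 (-1.18), GZMA (-2.37) and LCK (-1.30). The mean of the 13 lay at -1.35 to -0.91 in BUCY treated and at -0.28 to 0.45 in BUCY untreated piglets, without overlap. CD3D, which encodes a chain of the T cell receptor complex, was well above background on 0 of the 5 BUCY treated and on all 5 BUCY untreated arrays. Of 6 enterocyte markers DPP4 (-1.67), ANPEP (-0.99) and SLC5A1 (-1.48) fell, and the other 3, not called, lay between -0.054 and 0.54. The mean of the 6 ran from -2.25 to 0.86 in treated and from -0.12 to 0.69 in untreated piglets. Of 4 macrophage markers CD163 (1.44) and CD14 (0.81) rose, AIF1 (-0.54) fell and MRC1 (0.13) was not called. Of 4 neutrophil markers PLBD1 fell (-2.46) and the other 3, which were not called, lay between 0.10 and 0.25. Those 3 were dim: S100A8 and S100A9 were well above background on 1 of 5 BUCY treated arrays each and S100A12 on 2. Of 3 endothelial markers PECAM1 rose (1.27) and the others, not called, were at -0.036 and 0.18. DES (1.02) rose among 3 smooth muscle markers, and MS4A2 (-0.38) fell among 3 mast cell markers. IL16, CCR9 and IL12RB1 are genes of lymphocytes, and CXCL16, IL15, IL18 and CCL28 can come from epithelium. The part of these markers in the differences was not tested.

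The difference between the drug effects, BUCY minus DOX, was tested as an interaction in the same fit. In all, 3 members passed, 6.0% beside 5.88% of all genes tested: IL13RA2 with a difference above 0, beside 3.14% of all genes, and IL16 and IL18 with one below 0, beside 2.73%. Without BUCY treated replicate 1 the count was 7, and without BUCY treated replicate 3 or 4 it was 5. IL13RA2 stood at -0.46 after DOX, not called, and rose by 0.54 after BUCY (difference 1.01, SE 0.201, adjusted p = 0.00543). Its untreated groups differed too, at a mean of 0.36 in the DOX and -0.75 in the BUCY experiment, and the treated groups lay between them at -0.10 and -0.21. IL16 lay further below 0 after BUCY than after DOX (difference -0.71, SE 0.174, adjusted p = 0.0182).

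IL18 stood at 0.86 after DOX and at -0.55 after BUCY, neither of them called, and the difference between these values passed (difference -1.41, SE 0.372, adjusted p = 0.0274). It was at -0.84, -0.53, -1.23, -0.60 and -1.10 in BUCY untreated and at -0.37, -1.15, -2.48, -1.70 and -1.36 in BUCY treated piglets, where replicate 3 was the lowest and replicate 1 the highest. A second probe gave 0.70 after DOX and -0.71 after BUCY. The call of the difference was lost without BUCY untreated replicate 2 (0.0546), without BUCY treated replicates 2 and 3 together (0.0732) and with the slide as a fixed block (0.0845). With the slide as a fixed block that of IL16 was lost as well (0.0920), and that of IL13RA2 was kept (0.0278).

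CXCL16 (difference -1.41, adjusted p = 0.0622) and CCL19 (1.82, 0.0705) came next. With the slide as a random block both passed (0.0435 and 0.0380). Both also passed without BUCY treated replicate 1 (0.0123 and 0.0470) or 4 (0.0430 and 0.0322), and CXCL16 without replicate 3 (0.0477). For CCR2, which lay below 0 in both drug comparisons, the difference was 0.25 (95% interval -0.12 to 0.62). The interval spans 0, and the drugs were neither shown to differ nor shown to act alike on this gene.

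The untreated groups were compared to see where the controls of the experiments differ, since experiment, animals and time cannot be told apart there. Many of these genes were lower in the untreated piglets of the BUCY experiment than in those of the DOX experiment. The interferon-induced chemokines CXCL9 and CXCL10 were each 4.19-fold lower, CCL20, which epithelium makes to attract CCR6-bearing cells, was 5.81-fold lower, and the lambda interferon IL29 was 3.33-fold lower. Of the 50 members 21 were called lower, beside 12.2% of all genes, and 1 higher, beside 13.0%. The median was -0.35, beside 0.029 over all genes, and 80.0% of members were below 0, beside 44.7% of all genes.

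Chemokines made up the largest share. Of 20 tested chemokines 17 were below 0 and 11 were called, all lower, which is 55.0% beside 25.2% of all genes. CXCL10 was at -2.31, -2.32, -1.98, -2.50 and -0.24 in BUCY untreated piglets and ran from -0.39 to 0.92 with a median of 0.12 in DOX untreated piglets (log2 change -2.07, SE 0.427, adjusted p = 0.00106). CXCL9 was at -2.52, -2.19, -1.39, -2.12 and 0.33 and ran from -0.039 to 1.75 with a median of 0.31 (log2 change -2.07, SE 0.454, adjusted p = 0.00180). For both genes BUCY untreated replicate 5 was the highest of its group and lay within the DOX range, and the other 4 lay below every DOX untreated piglet. Only slides 2 and 7 hold both untreated groups. Within them the difference ran from -2.33 to -0.44 for CXCL10 and from -2.31 to 0.057 for CXCL9. With the slide as a fixed block adjusted p for CXCL9 was 0.0509. CXCL11, the third member of that trio, was lower as well (-1.16, adjusted p = 0.00259), without overlap. Its probe was well above background on 3 of 5 BUCY untreated and on all 6 DOX untreated arrays. With the slide as a fixed block the call of CXCL11 was lost (0.100).

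CCL20 was at -2.35, -3.40, -3.02, -0.55 and -2.94 in BUCY untreated piglets and ran from -1.17 to 1.58 with a median of -0.092 in DOX untreated piglets (log2 change -2.54, SE 0.540, adjusted p = 0.00137). Only BUCY untreated replicate 4 reached the DOX range. CCL8, which attracts monocytes and T cells, was at -0.42, -0.57, -1.34, -0.96 and -1.48 and ran from -0.11 to 0.53 with a median of 0.28 (log2 change -1.21, SE 0.231, adjusted p = 0.000488). CCL4 was at -0.31, -0.012, -1.25, -0.52 and 0.026 and ran from 0.37 to 0.89 with a median of 0.54 (log2 change -1.01, SE 0.214, adjusted p = 0.00132). Neither CCL8 nor CCL4 overlapped between the untreated groups. CCL2 (-1.18), CCL28 (-1.31), CCL3L1 (-0.61), CCL19 (-1.29) and CXCL8 (-0.92) were called lower too, with adjusted p from 0.00231 to 0.0402. CCL14 (-0.37), CCL11 (-0.32), CCL24 (-0.18), CCL25 (-0.18), CCL26 (-0.15), CXCL12 (-0.52), CCL27 (0.23), CXCL14 (0.31) and CXCL16 (0.26) were not called. The call of CCL19 was lost without BUCY untreated replicate 3 (0.0741), BUCY untreated replicate 4 (0.0685), DOX untreated replicate 3 (0.0674) or DOX untreated replicate 4 (0.0529), and that of CXCL8 without any of 8 of the 11 untreated arrays (adjusted p from 0.0551 to 0.122), the exceptions being BUCY untreated replicates 1 and 2 and DOX untreated replicate 6.

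All 7 chemokine receptors were below 0 between the untreated groups, beside 44.7% of all genes. Of the 7 receptors 4 were called, 57.1% beside 25.2% of all genes. CCR7, which dendritic and naive T cells use to enter lymphoid tissue (-0.68, adjusted p = 0.0121), CXCR4 (-0.53, 0.0340) and CCR2 (-0.42, 0.0180) were among those lower in the BUCY experiment, and CXCR6 (-0.28), CCR9 (-0.17) and CCR1 (-0.12) were not called. The call of CCR2 was lost without BUCY untreated replicate 4 (0.0573), and that of CXCR4 without BUCY untreated replicate 3 (0.0942), BUCY untreated replicate 4 (0.0955), DOX untreated replicate 3 (0.0846), DOX untreated replicate 4 (0.0720), DOX untreated replicate 5 (0.0503) or DOX untreated replicate 6 (0.0501).

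Among the interleukins IL29 was at -1.03, -1.27, -1.14, -1.19 and -0.90 in BUCY untreated piglets and ran from 0.29 to 1.26 with a median of 0.57 in DOX untreated piglets (log2 change -1.74, SE 0.241, adjusted p = 1.81e-05). The BUCY treated piglets were at -1.32, -1.10, -0.80, -1.03 and -1.03, so all 10 piglets of that experiment lay below 0, and all 6 DOX untreated piglets above it. IL27, a cytokine of antigen-presenting cells, was at -0.32, -0.16, -0.31, -0.47 and -0.26 and ran from 0.089 to 0.52 with a median of 0.27 (log2 change -0.59, SE 0.125, adjusted p = 0.00134). IL10, the main restraining cytokine of the gut, was at -0.18, -0.34, -0.86, -0.74 and -0.97 and ran from -0.18 to 0.55 with a median of 0.21 (log2 change -0.79, SE 0.176, adjusted p = 0.00211), and a second probe gave -0.51. Neither gene overlapped between the untreated groups, IL10 by a narrow margin. IL7 (-0.62, adjusted p = 0.0151) and IL16 (-0.34, 0.0441) were called lower, the latter lost without any of 7 of the 11 untreated arrays (adjusted p from 0.0568 to 0.135) and kept without BUCY untreated replicate 1 or 4 or DOX untreated replicate 1 or 5.

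IL13RA2 gave the smallest p of all members between the untreated groups (log2 change -1.11, SE 0.142, adjusted p = 7.31e-06), without overlap. Its difference was -1.15 to -0.79 within slides 2 and 7, the only ones that hold both untreated groups. A second, dimmer probe gave -0.43. IL10RB was the only member called higher in BUCY untreated piglets (log2 change 0.63, SE 0.220, adjusted p = 0.0385), and that call was lost without BUCY untreated replicate 3 (0.0569), BUCY untreated replicate 4 (0.121), BUCY untreated replicate 5 (0.103), DOX untreated replicate 4 (0.0887), DOX untreated replicate 5 (0.0835) or DOX untreated replicate 6 (0.0517) and with the slide as a fixed block (0.0698). The remaining tested members, IL1A, IL1B2, IL18, IL18R1, IL5, IL6, IL12B, IL15, IL2RG, IL4R, IL6R, IL6ST, IL7R, IL12RB1, IL13RA1 and IL23R, were not called here. Their log2 differences lay between -0.42 for IL18 and 0.44 for IL15. IL12B was not well above background on any BUCY untreated array and on 3 of 6 DOX untreated ones was, with a measured difference of -0.14.

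Cell markers were uneven between the untreated groups. Of the 13 T and NK cell markers 10 were below 0 and 2 were called lower in the BUCY experiment, 15.4% beside 25.2% of all genes, with a median of -0.21 and CD8A at -0.92. The mean of the 13 ran from -0.28 to 0.45 in BUCY untreated and from 0.21 to 0.52 in DOX untreated piglets, with overlap. Of 4 macrophage markers 3 were called lower, among them CD163 at -0.63 and AIF1 at -0.81, and CD14 was at 0.10. Of 4 neutrophil markers 0 were called by limma, with 0 at an unadjusted p under 0.05, 2 above and 2 below 0. Of 6 enterocyte markers 3 were called higher and 1 lower, and of 3 mast cell markers 2 were called lower. The part of these markers in the untreated differences was not tested.

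**Figure D3:**
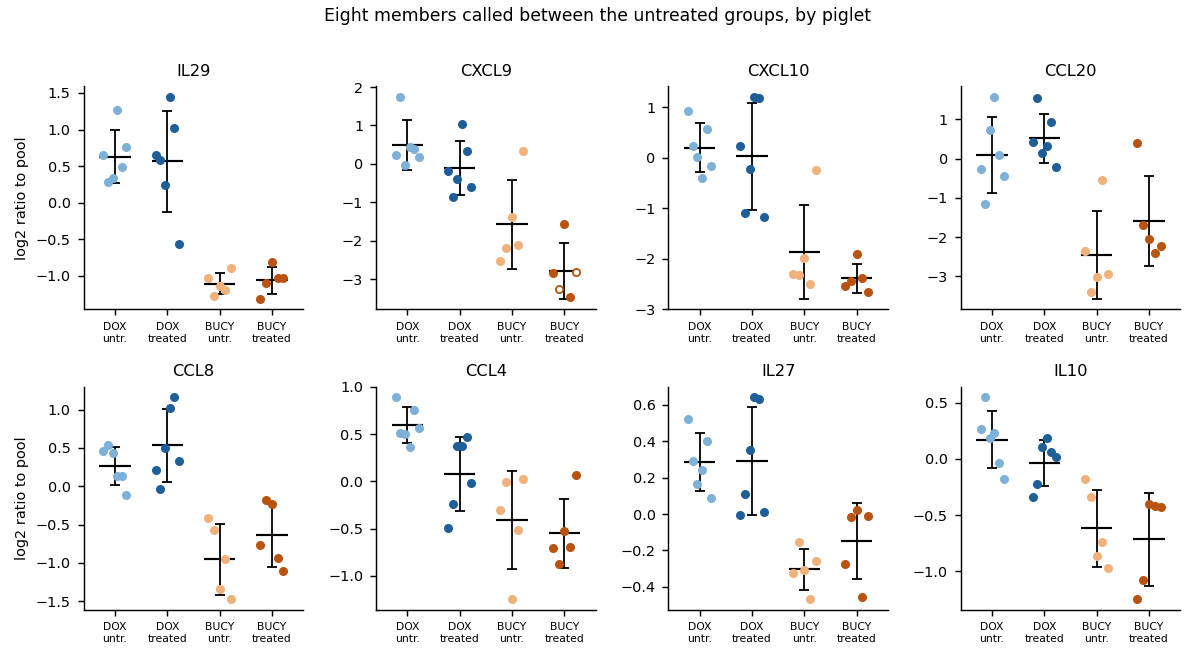
Log2 ratio to the pool (y axes, which differ in range) of 8 members called lower in BUCY untreated than in DOX untreated piglets, shown in each piglet of the 4 groups with the group mean and SD as bars and open points where the probe was not well above background. For IL29 all 10 piglets of the BUCY experiment lie below 0, and for CXCL9 and CXCL10 a single BUCY untreated piglet lies within the range of the DOX untreated piglets.

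Set side by side as ligand and receptor, none of the following chemokine pairs had both partners called in a drug comparison. For CCL25 and CCR9, the pair of small intestinal homing, the values were -0.19 and -0.19 after DOX and -0.51 and -0.59 after BUCY, of which only CCR9 after BUCY passed (adjusted p of CCL25 0.173). For CXCL16 and CXCR6 they were 0.20 and 0.34, then -1.21 and -0.27, with only CXCL16 after BUCY called. For CXCL12 and CXCR4 they were -0.77 and 0.14, then -0.47 and 0.051, and none passed. CCL2 stood at -0.23 after DOX beside the called fall of CCR2. CCL19 rose after BUCY, and its receptor CCR7 stood at -0.0072, with a 95% interval of -0.43 to 0.41.

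Interleukins can be set beside their receptor chains in the same way. IL7 and IL7R were at -0.060 and 0.39 after DOX and at -0.38 and -0.15 after BUCY, and none was called. A second IL7R probe gave 0.082 after DOX and -0.33 after BUCY. IL18R1, a receptor chain for IL18 that was above background on 7 arrays, was at -0.011 after DOX and -0.038 after BUCY. IL6 and IL6R stood at 0.31 and 0.039 after BUCY, where IL6ST rose, and at -0.040, -0.032 and 0.17 for IL6ST after DOX. IL10 was at -0.10 after BUCY, where IL10RB fell, and IL10 and IL10RB were at -0.20 and -0.035 after DOX. IL15 fell after BUCY and its receptor chain IL2RG did not pass. In the DOX comparison IL15 was at -0.076, IL2RG at -0.26, IL5 at 0.026, IL4R at -0.070 and IL13RA1 at 0.23.

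The rest of the members were short of the threshold after DOX, and the 95% intervals of all of them spanned 0. The chemokines CCL3L1, CCL8, CCL14, CCL19, CCL20, CCL27, CCL28, CXCL8, CXCL9, CXCL10, CXCL11 and CXCL14 lay between -0.60 for CXCL9 and 0.43 for CCL20, and CCR7 was at -0.037. The interleukins IL1A, IL1B2, IL12B, IL27 and IL29 and the receptor chains IL12RB1 and IL23R lay between -0.15 for IL12RB1 and 0.18 for IL1B2. The smallest adjusted p among these was 0.481, for IL12RB1.

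Downstream of the receptors, the 28 signalling genes with a probe (JAK, STAT and SOCS genes and NF-kappaB signalling genes, of 49 listed) were all tested. After DOX 1 of 28 was called, beside 0.848% of all genes: STAT4, the transcription factor downstream of IL12 (-0.43, adjusted p = 0.0400). After BUCY 10 were called, 4 higher and 6 lower, which is 35.7% beside 17.3% of all genes. The kinase JAK1, shared by many interleukin receptors, fell (-0.43, adjusted p = 0.00270), and STAT4 fell here too (-0.39, 0.0182). STAT3, which acts downstream of IL6ST, rose (0.80, 0.0127), and so did MAP3K7, a kinase on the path from the IL1 receptor to NF-kappaB (0.55, 0.0102). The median over the 28 was -0.076 after DOX and -0.042 after BUCY.

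Between the untreated groups 8 of the 28 were called, 3 higher and 5 lower in the BUCY experiment, which is 28.6% and near the 25.2% of all genes. STAT3, STAT4 and JAK1 were at -0.12, -0.20 and 0.34 there, with adjusted p of 0.714, 0.185 and 0.00583. Among 24 tested cytokine genes outside the naming rule, 0 were called after DOX by limma, with 4 at an unadjusted p under 0.05, and 5 after BUCY, 20.8% and near the 17.3% of all genes. XCL1, a chemokine of activated T and NK cells, fell (-1.66, adjusted p = 0.000156), and so did its receptor XCR1 (-0.63, 0.00469), while MIF (0.87, 0.000346) and the vessel-bound chemokine scavenger ACKR1 (1.15, 0.0107) rose. The signalling, cytokine and cell marker lists were chosen with earlier results known, and their counts are descriptions.

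**Figure D4:**
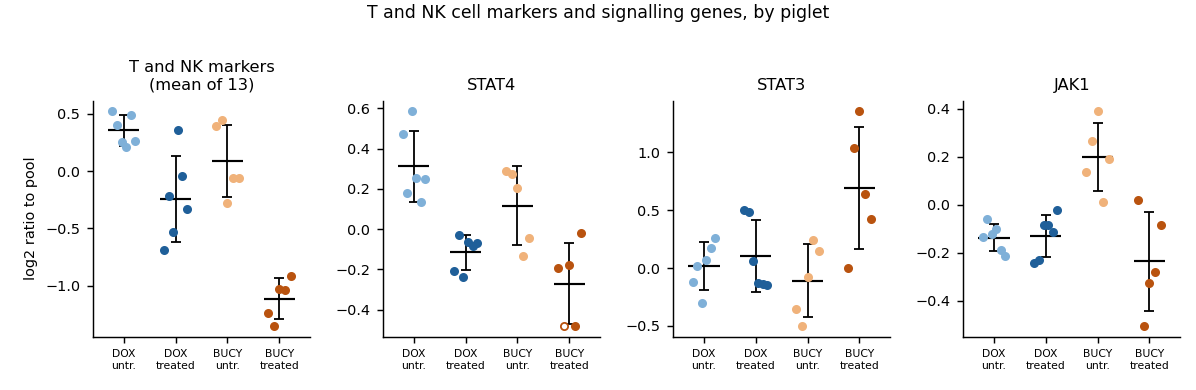
Log2 ratio to the pool (y axes, which differ in range) in each piglet of the 4 groups, for the mean of the 13 tested T and NK cell markers and for the signalling genes STAT4, STAT3 and JAK1, with the group mean and SD as bars. The T and NK mean of the BUCY treated piglets, -1.35 to -0.91, lies below all other piglets, and for STAT4 the 6 DOX treated piglets lie below the 6 DOX untreated ones.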

How the data were processed

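Total RNA from small intestine of 22 piglets was hybridised to two-colour Agilent arrays, 1 piglet per array. Per the file headers, Agilent Feature Extraction 10.7.3.1 wrote, for both channels, the median intensity of each spot and of its surroundings, flags for spots well above background, saturated spots and outlier spots, and a log10 ratio of dye-normalised signals. Per the labels, Cy5 holds the piglet and Cy3 a pool of all samples, without a dye swap. The deposited value table holds the authors' log2 ratios (the submitters' processing notes name Feature Extraction and limma). Its columns correlated with quantile-normalised ratios of the same arrays at 0.995 to 1.0, with slopes of 0.993 to 1.01, which settles its scale and direction. Its medians ran from 0.0015 to 0.018, and the labels and files do not name its exact steps.

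Here, median signals were corrected with normexp (offset 50) and normalised by loess within arrays, with control spots at weight 0 and outlier spots left out. No spot was saturated. Spots of a probe were averaged. The files pair probes with accessions, and a RefSeq table gave 1 symbol to 6700 of 43603 probes (15.4%); the brightest probe stood for a symbol. limma 3.58.1 in R 4.3.3 fitted 4 group means (18 residual degrees of freedom, two-sided tests, Benjamini-Hochberg over 24761 genes, of which 2653 have a symbol) and was tested on simulated data. Figures used matplotlib 3.10.9.

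Alternatives were other normalisations, the deposited table, Cy5 alone, filters, probes, slide and scan day blocks, array weights and arrays left out. Full values were given for up to 10 called members per comparison by smallest p, and up to 4 called genes per other list and drug comparison. The members, lists and alternatives were chosen with earlier results of these data known. Some results, among them 1 tested member's, are not reported here, though counts include them. Replicate numbers follow the order of deposit and pair nothing.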

Additional observations from a re-analysis of the deposited data

Results flagged for a closer look

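In 5 of the 80 group and gene combinations checked (20 named members in 4 groups), a single piglet stood apart from the rest of its group by Dixon's criterion, and chance sets apart about 1 in 20 groups. CCL20 was at 0.389 in BUCY treated replicate 1, where the next piglet was at -1.69. CXCL10 was at -0.242 in BUCY untreated replicate 5, with the next at -1.98. CXCL9 was at 1.75 in DOX untreated replicate 2, with the next at 0.448. IL13RA2 was at 0.854 in DOX untreated replicate 1, with the next at 0.431. IL15 was at -0.176 in BUCY untreated replicate 4, the lowest of its group, with the next at 0.398.

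The effects of the drugs differed by the interaction test for 3 of 50 tested members, 6.0% and near the 5.88% of all genes tested. The log2 difference of BUCY minus DOX was 1.01 for IL13RA2, -0.708 for IL16 and -1.41 for IL18.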

How the results depend on the processing

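No called member changed sign under any alternative run. The call held under all alternatives and left-out arrays for 1 of 14 members after BUCY (IL16), 13 of 22 between the untreated groups, 0 of 1 after DOX and 0 of 3 for the difference of effects. Leaving out 1 array at a time gave 0 to 3 called members after DOX, 5 to 16 after BUCY, 2 to 7 for the difference and 17 to 22 between the untreated groups. After DOX the count of 1 became 4 with arrays scaled to a common spread, 0 with Cy5 alone, 3 with the slide as a fixed and 3 as a random block, 4 with only the compared groups in the fit, 2 without BUCY treated replicates 2 and 3 and 7 with array weights. After BUCY the count of 14 became 8 with scaled arrays, 5 with the slide as a fixed block, 4 with only the compared groups, 4 without the 6 arrays whose titles carry a suffix (3 of them among the 14), 3 without BUCY treated replicates 2 and 3 and 9 with array weights. The difference of effects had 3 calls, 0 with median centring, 1 with Cy5 alone, 5 with the slide as a random block and 1 without the suffixed arrays (0 shared with the 3). The suffixed arrays are BUCY treated replicates 3, 4 and 5, BUCY untreated replicates 4 and 5 and DOX treated replicate 3. They thus fall mostly in the BUCY experiment. The untreated comparison stayed between 16 and 24 over all alternatives. Fewer arrays enter the fits with arrays left out or with only the compared groups. With only the compared groups, the spread also comes from those groups alone. Otherwise the cause was not tested. Aquantile leaves log ratios as they are, so it gave the same values by construction.

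No paired analysis was possible because the labels link no treated piglet to an untreated one. The replicate numbers used here follow the order of deposit. Precision is limited by 5 or 6 arrays a group and, for dim probes, by signal over background: 13 of the 50 tested members were not above background on every array, and 11 members had too few arrays above it to be tested.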
